A study of Homo sapiens with 6 samples.

Results

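The receptors of the EGFR family and the growth factors that bind them were followed in the human cell lines H69 and H69M, both labelled as small cell lung cancer. The members were taken from a list of 10 genes, the receptors EGFR, ERBB2, ERBB3 and ERBB4 and the ligands HBEGF, AREG, EREG, TGFA, BTC and NRG1, by their symbol in the platform annotation. Of these, 9 were measured, out of 18404 genes in all; AREG is not analysed here. H69 is an established line of the classic, neuroendocrine kind. How H69M was obtained is not in the labels, which name no treatment and no genetic change for either line. Total RNA of each line was hybridised to 3 Affymetrix whole-transcript arrays, and all values below are RMA values on the log2 scale of the probe set with the highest mean for a gene.

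EGFR, ERBB2, ERBB3 and ERBB4 are receptor tyrosine kinases that work in pairs. Ligand binding exposes a dimerisation arm, the paired kinases phosphorylate each other's tails, and adaptor proteins carry the signal to the RAS-MAPK and PI3K-AKT cascades. ERBB2 has no known ligand of its own and is the preferred partner of the others, while ERBB3 has a weak kinase and signals through its partner. The ligands are made as membrane-bound precursors that metalloproteases of the ADAM family cut free. EGF, TGFA and EPGN bind EGFR, HBEGF, EREG and BTC bind EGFR and ERBB4, NRG1 and NRG2 bind ERBB3 and ERBB4, and NRG3 and NRG4 bind ERBB4. In lung cancer EGFR is best known as a driver of adenocarcinoma.

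Most of the family was higher in H69M, but its receptors did not move as 1 block. Of the 9 measured members, 6 rose (EGFR, ERBB2, HBEGF, EREG, TGFA and NRG1), 2 fell (ERBB4 and BTC) and ERBB3 was not called, by limma at a Benjamini-Hochberg adjusted p threshold of 0.05 over all genes. Over all genes 44.2% were called, 21.0% higher and 23.2% lower. EGFR, ERBB2, HBEGF and NRG1 passed with at least a 2-fold rise, a size reached by 5.56% of all genes. All arrays of one line lay on the same side of all arrays of the other for 8 of the 9 members, and for 55.8% of all genes. The median log2 fold change of the 9 members was 0.71 and that of all genes -0.04. With each array centred on its median, 68.7% of the called genes were lower in H69M in place of 52.5%, and 5 members were then called higher and 2 lower.

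The array medians lay between 6.43 and 6.48, and Pearson's r between 2 arrays, across the 18404 genes, was 0.995 to 0.998 within a line. H69M replicate 1 lay nearer to H69 than the other H69M arrays did. It was the nearest H69M array to the H69 mean in 55.0% of the 8140 called genes and in 7 of the 8 called members. Without it, 5 members were called higher and 2 lower. Whether the 3 arrays of a line came from separate cultures is not in the labels. The p-values therefore rest on array-to-array spread that may be technical.

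**Figure D1:**
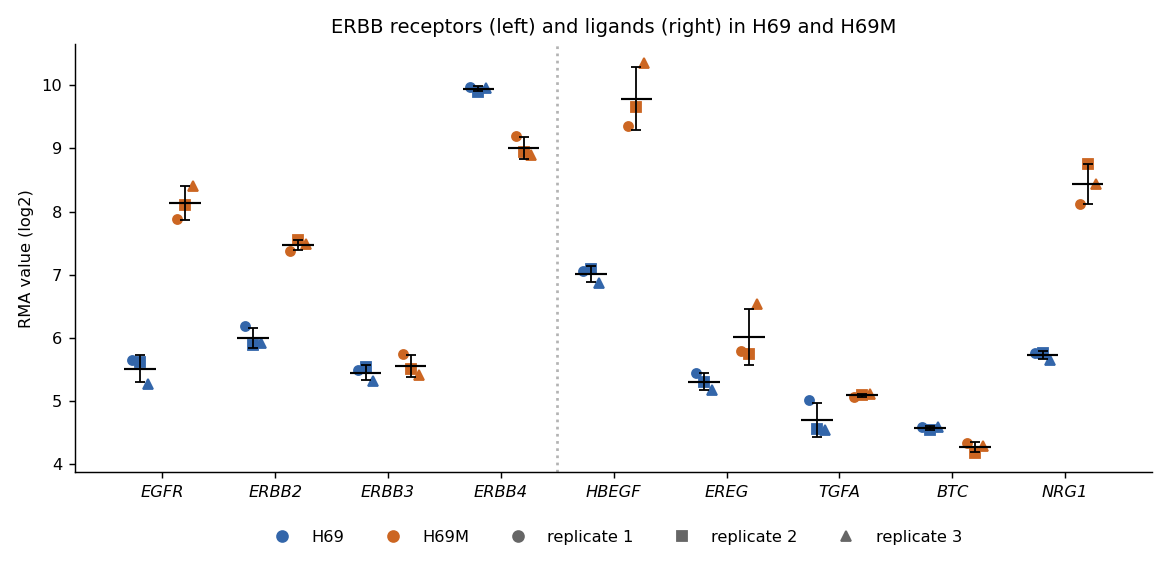
RMA values (log2) of the 9 measured members on each of the 6 arrays, receptors left of the dotted line and ligands right of it; blue is H69, orange is H69M, the symbol shape is the replicate, and black bars give the mean and SD (n = 3). The H69M arrays lie well above the H69 arrays for EGFR, ERBB2, HBEGF and NRG1, below them for ERBB4, and among them for ERBB3.

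Among the receptors, EGFR had the largest rise. EGFR (probe set 8132860) read 5.65, 5.61 and 5.26 on the 3 H69 arrays and 7.88, 8.11 and 8.41 on the 3 H69M arrays (log2). All H69M arrays were above all H69 arrays, with more than 2 log2 units between the sets. The mean went from 5.51 ± 0.21 to 8.13 ± 0.26 (log2, SD, n = 3), a log2 fold change of 2.63 ± 0.15 (SE), or 6.17-fold (limma, Benjamini-Hochberg adjusted p = 5.64e-06). The H69 mean lay below the 25th percentile of gene level (5.58), so the fold starts from a dim signal. In bulk RNA, as here for every member, more cells with a transcript and more of it per cell cannot be told apart. Its 95% interval ran from 2.28 to 2.97. H69M replicate 3 was the highest array and H69M replicate 1 the lowest of that line; without replicate 1 the log2 fold change was 2.75.

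The annotation places a start of EGFR at the head of the gene on chromosome 7 and another far inside it. The sequences before both are shown because EGFR was the receptor with the largest rise and the 2 windows differ in the motifs they hold. They are the 250 bases before each start, from RefSeq on GRCh38.p14, plus strand, written 5′ to 3′. Capitals mark matches, on either strand, to AP-1 (TGANTCA), TEAD (GGAATG), ETS (CCGGAAG), SP1 (GGGCGG), the TATA box (TATAAA) or CRE (TGACGTCA).
EGFR, gene start, chr7:55018767-55019016: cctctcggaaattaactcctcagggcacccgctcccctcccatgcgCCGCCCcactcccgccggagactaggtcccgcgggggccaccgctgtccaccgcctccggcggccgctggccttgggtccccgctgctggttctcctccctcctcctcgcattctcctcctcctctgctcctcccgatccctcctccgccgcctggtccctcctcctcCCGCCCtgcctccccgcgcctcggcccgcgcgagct
EGFR, internal start, chr7:55109589-55109838: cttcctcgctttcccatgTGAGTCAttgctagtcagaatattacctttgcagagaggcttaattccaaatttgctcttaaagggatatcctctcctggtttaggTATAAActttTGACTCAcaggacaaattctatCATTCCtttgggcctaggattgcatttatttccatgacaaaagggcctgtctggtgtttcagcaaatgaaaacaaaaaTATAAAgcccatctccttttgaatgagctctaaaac
The window at the gene start was 73.6% G and C and held 2 SP1 matches and no match to the other motifs. The window at the internal start was 38.8% G and C and held 2 AP-1 matches, at -232 to -226 and at -136 to -130 from that start, with 1 TEAD match and 2 TATA matches; no match overlapped another. Of the 35116 windows of this length in the table, 6.57% held an AP-1 match, 11.9% a TEAD match, 10.7% a TATA match and 42.6% an SP1 match. The single EGFR probe set does not tell transcripts of these starts apart, and a match is only a description of the letters.

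ERBB2, the shared partner receptor, also rose. Its values (probe set 8006906) were 6.18, 5.88 and 5.92 in H69 and 7.37, 7.54 and 7.49 in H69M (log2). The lines were separated by more than 1 log2 unit, and the H69M arrays lay close together. The mean rose from 5.99 ± 0.16 to 7.47 ± 0.09 (log2, SD, n = 3), a log2 fold change of 1.47 ± 0.09 (SE), or 2.78-fold (limma, Benjamini-Hochberg adjusted p = 9.09e-06).

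ERBB3, the receptor with a weak kinase, was not called. It read 5.49, 5.53 and 5.32 in H69 and 5.74, 5.50 and 5.41 in H69M (log2, probe set 7956120), and the arrays of the lines overlapped. The log2 fold change was 0.11 with a 95% interval from -0.13 to 0.34 (limma, Benjamini-Hochberg adjusted p = 0.431). The interval leaves room for a small difference in either direction. The ERBB3 level lay below the 25th percentile of all genes, at which RMA values carry no detection call and compress folds.

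ERBB4 was the receptor that fell. It read 9.97, 9.90 and 9.96 in H69 and 9.21, 8.94 and 8.89 in H69M (log2, probe set 8058627). The H69 arrays differed little from each other and all lay above the H69M arrays. The mean went from 9.95 ± 0.04 to 9.01 ± 0.17 (log2, SD, n = 3), a log2 fold change of -0.94 ± 0.09 (SE), which is 1.91-fold lower (limma, Benjamini-Hochberg adjusted p = 8.49e-05). The highest H69M array was replicate 1, and without it the log2 fold change was -1.03. The 250 bases before its start, from RefSeq, are shown beside those of EGFR as the receptor that moved the other way; they lie on the minus strand of chromosome 2 in GRCh38.p14.
ERBB4, chr2:212538803-212539052: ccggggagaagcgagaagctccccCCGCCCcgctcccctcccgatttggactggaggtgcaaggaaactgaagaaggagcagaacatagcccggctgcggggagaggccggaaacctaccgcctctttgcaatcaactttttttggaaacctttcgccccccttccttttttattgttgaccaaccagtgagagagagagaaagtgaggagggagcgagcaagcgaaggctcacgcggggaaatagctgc
This window was 57.2% G and C and held 1 SP1 match and none to the other motifs.

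HBEGF and NRG1 had the largest rises among the ligands, and their order depended on the setting. HBEGF, a heparin-binding growth factor for EGFR and ERBB4, read 7.06, 7.09 and 6.87 in H69 and 9.36, 9.66 and 10.35 in H69M (log2, probe set 8114572). The H69M arrays spread over nearly 1 log2 unit, with replicate 3 on top, and still stood more than 2 units above every H69 array. The mean rose from 7.01 ± 0.12 to 9.79 ± 0.51 (log2, SD, n = 3), a log2 fold change of 2.78 ± 0.22 (SE), or 6.89-fold (limma, Benjamini-Hochberg adjusted p = 3.14e-05). It was 2.998 without H69M replicate 1 and 2.51 without H69M replicate 3.

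NRG1, neuregulin 1, which binds ERBB3 and ERBB4, also rose. Its probe set 8145736 read 5.76, 5.75 and 5.64 in H69 and 8.13, 8.76 and 8.43 in H69M (log2). The lines did not overlap, and the H69 arrays lay closer together than the H69M arrays. The mean went from 5.72 ± 0.07 to 8.44 ± 0.32 (log2, SD, n = 3), a log2 fold change of 2.72 ± 0.14 (SE), or 6.58-fold (limma, Benjamini-Hochberg adjusted p = 3.72e-06). With the mean of its probe sets in place of the one with the highest mean, the log2 fold change was 3.34, above the 2.78 of HBEGF. It was also above HBEGF without H69M replicate 3 (2.72 against 2.51) and, narrowly, with array weights (2.786 against 2.782).

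EREG, TGFA and BTC changed by less, and the calls of EREG and TGFA were less stable. EREG, epiregulin, read 5.43, 5.30 and 5.17 in H69 and 5.78, 5.74 and 6.53 in H69M (log2, probe set 8095728). The lines did not overlap, but H69M replicate 3 stood apart from the other H69M arrays, as it did for HBEGF. The log2 fold change was 0.71 ± 0.20 (SE), or 1.64-fold (limma, Benjamini-Hochberg adjusted p = 0.0203). Without H69M replicate 3 it was 0.46, still called (limma, Benjamini-Hochberg adjusted p = 0.00551), and the call was lost without H69 replicate 2 (adjusted p = 0.0548) or H69 replicate 3 (adjusted p = 0.0716).

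TGFA, transforming growth factor alpha, a ligand of EGFR, read 5.003, 4.55 and 4.53 in H69 and 5.06, 5.08 and 5.11 in H69M (log2, probe set 8052872). H69 replicate 1 lay just under the H69M arrays and far above the other H69 arrays. The log2 fold change was 0.39 ± 0.12 (SE), or 1.31-fold (limma, Benjamini-Hochberg adjusted p = 0.0343). This call was lost under 8 of 14 alternatives, among them every removal of a single array except H69 replicate 1 (limma adjusted p = 0.0672 to 0.112), and the fold change was 0.54 without H69 replicate 1 (limma adjusted p = 0.00087).

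BTC, betacellulin, a ligand of EGFR and ERBB4, was the only member among the ligands that fell. It read 4.58, 4.54 and 4.58 in H69 and 4.33, 4.17 and 4.28 in H69M (log2, probe set 8101002). The H69M arrays lay below the H69 arrays by a small margin. The log2 fold change was -0.31 ± 0.06 (SE), 1.24-fold lower (limma, Benjamini-Hochberg adjusted p = 0.0046). TGFA and BTC both lay below the 25th percentile of level, so these are differences between dim signals.

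The windows before the starts of HBEGF and EREG are shown as those of an EGFR and ERBB4 ligand with a large rise and one with a small rise. Both are 250 bases from RefSeq on GRCh38.p14 with the same motifs in capitals, HBEGF on the minus strand and EREG on the plus strand.
HBEGF, chr5:140346604-140346853: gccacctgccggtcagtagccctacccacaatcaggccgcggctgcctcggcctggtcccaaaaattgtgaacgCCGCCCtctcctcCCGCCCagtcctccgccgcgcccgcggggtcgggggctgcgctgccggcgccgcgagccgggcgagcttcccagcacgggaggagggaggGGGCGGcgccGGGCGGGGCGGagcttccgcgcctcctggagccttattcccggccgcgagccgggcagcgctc
EREG, chr4:74364895-74365144: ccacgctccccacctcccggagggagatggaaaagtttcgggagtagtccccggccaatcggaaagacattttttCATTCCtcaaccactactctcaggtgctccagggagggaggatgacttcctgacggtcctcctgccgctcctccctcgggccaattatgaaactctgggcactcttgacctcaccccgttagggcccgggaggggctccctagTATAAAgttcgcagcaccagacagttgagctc
The HBEGF window was 76.4% G and C and held 5 SP1 matches, of which the nearest pair to the start overlap by 1 base. The EREG window was 58.0% G and C and held 1 TATA match at -32 to -27 and 1 TEAD match at -175 to -170, with no SP1 match. Windows at the gene start were searched in the same way for 7 of the 9 members, and ERBB3 and NRG1 were not searched. Of those not described above, ERBB2 held 2 ETS matches and 1 AP-1 match, TGFA 3 SP1 matches, and BTC none of the 6 motifs. ETS matches were found in 8.52% and CRE matches in 1.65% of all windows.

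The other ligands of the family, 5 in number, gave 1 rise, 1 fall and 3 genes not called, with a median log2 fold change of -0.02; these shares are near those of all genes (21.0% higher, 23.2% lower). EGF itself, a ligand of EGFR, read 4.73, 4.34 and 4.51 in H69 and 6.02, 6.02 and 6.17 in H69M (log2), a log2 fold change of 1.54 ± 0.10 (SE), or 2.92-fold (limma, Benjamini-Hochberg adjusted p = 1.19e-05). NRG4, a ligand of ERBB4, had a log2 fold change of -0.48 ± 0.09 (SE) and was called lower (limma, Benjamini-Hochberg adjusted p = 0.0035). EPGN (epigen, -0.01), NRG2 (-0.02) and NRG3 (-0.30) were not called. NRG3, a ligand of ERBB4, had a limma Benjamini-Hochberg adjusted p = 0.0546, and was called lower without H69 replicate 3 (adjusted p = 0.0223), with arrays centred (adjusted p = 0.0117), with quantile normalization (adjusted p = 0.0225) and with array weights (adjusted p = 0.03). EGF, EPGN, NRG3 and NRG4 lay below the 25th percentile of level; with such genes left out only NRG2 remained of these ligands, and 0 were called.

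Counted by receptor, 2 of the 3 measured ligands of EGFR alone rose and 0 fell; the rises were EGF and TGFA, and the call of TGFA was lost under 8 of 14 alternatives. Of the 3 ligands of EGFR and ERBB4, 2 rose and 1 fell. Of NRG1 and NRG2, which bind ERBB3 and ERBB4, 1 rose. Of NRG3 and NRG4, which bind ERBB4, 0 rose and 1 fell. Over all 10 measured ligands 5 rose and 2 fell, against 21.0% higher and 23.2% lower over all genes, and groups of 2 or 3 ligands are too small to set against those shares.

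**Figure D2:**
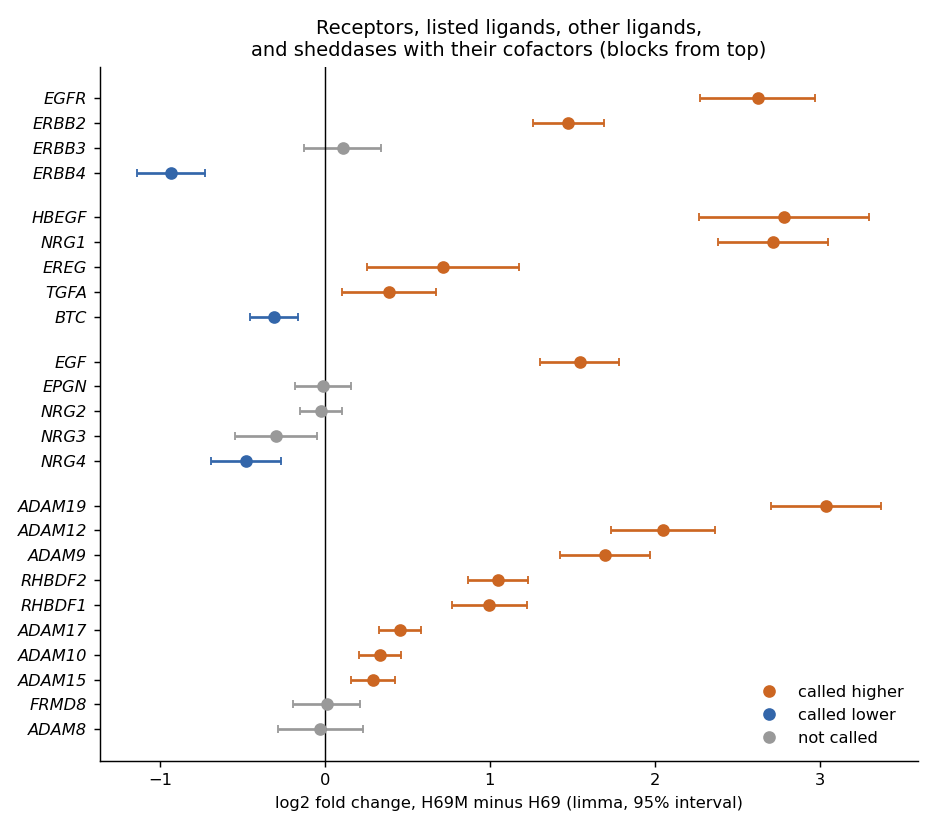
Log2 fold change of H69M minus H69 with its 95% interval from limma for, in blocks from the top, the 4 receptors, the 5 measured ligands of the list, the other 5 ligands, and 10 genes of ligand shedding; orange was called higher, blue lower and grey not called. The largest value is 3.04 for ADAM19, and the lowest is -0.94 for ERBB4.

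Genes that release the ligands rose more often than they fell. Of 10 genes of this group, 8 were called higher and 0 lower, with a median log2 fold change of 0.73, against 21.0% higher and 23.2% lower over all genes. The group was listed with earlier results of these data known, so its count is only a description. ADAM17, which sheds HBEGF, TGFA, AREG and EREG precursors, read 7.89, 7.89 and 7.87 in H69 and 8.30, 8.39 and 8.33 in H69M, a log2 fold change of 0.46 ± 0.05 (SE; limma, Benjamini-Hochberg adjusted p = 0.000299). ADAM10, which sheds EGF and BTC, had 0.33 ± 0.05 (limma, Benjamini-Hochberg adjusted p = 0.0015). Both differences were small and separated all arrays of the lines.

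ADAM19, ADAM12 and ADAM9 had larger rises than ADAM17 and ADAM10. ADAM19, known for cutting neuregulin precursors, rose by 3.04 ± 0.14 in log2 (SE), or 8.22-fold (limma, Benjamini-Hochberg adjusted p = 2.13e-06). ADAM12 and ADAM9, both linked to HBEGF release, rose by 2.05 and 1.70, while ADAM15 rose by 0.29. The iRhom genes RHBDF1 (0.995) and RHBDF2 (1.05), whose products carry ADAM17 to the cell surface, rose. ADAM8 (-0.03) and FRMD8 (0.01), whose product stabilises iRhoms, were not called.

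Feedback inhibitors of the receptors and of RAS signalling were among the genes that rose. Of 18 measured inhibitors, 8 were called higher and 3 lower, with a median of 0.19, against 21.0% higher and 23.2% lower over all genes. Earlier results of these data were known when the inhibitors were listed, so this count too is only a description. The largest changes were in SPRED1 (2.54 ± 0.09, log2, SE), SPRY4 (1.99 ± 0.11) and SPRY2 (1.66 ± 0.09), which dampen RAS-MAPK signalling, and in ERRFI1 (1.45 ± 0.08), which binds and blocks the ERBB kinases. The highest limma Benjamini-Hochberg adjusted p of these 4 was 5.25e-06. The called falls, picked out with their values known, were LRIG1 (-0.45) and LRIG3 (-0.31), transmembrane proteins of which LRIG1 promotes receptor breakdown, and SOCS4 (-0.40).

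Apart from SHC1, the adaptors and the core cascade changed by less than 2-fold. Of 27 measured genes, 10 were called higher and 5 lower, with a median of 0.14, and a difference of at least 2-fold was found for 1 of them. At that size 5.56% of all genes were called higher and 2.72% lower, so 1 of 27 does not set this list apart. Over all genes 21.0% were higher and 23.2% lower, so the count of falls is near that of all genes. SHC1, an adaptor that docks on phosphorylated ERBB tails, read 7.82, 7.85 and 7.82 in H69 and 9.65, 9.98 and 9.94 in H69M, a log2 fold change of 2.03 ± 0.09 (SE; limma, Benjamini-Hochberg adjusted p = 1.62e-06). MAP2K2, the kinase MEK2, rose by 0.49. The regulatory subunits of PI3K PIK3R3 (-0.90 ± 0.07) and PIK3R1 (-0.67 ± 0.06) fell. With arrays centred on their medians, 7 genes of this list were called higher and 9 lower.

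Transcripts that EGF is known to induce in other cells were mostly higher in H69M. Of 27 measured, 17 were called higher and 3 lower, with a median of 0.38, against 21.0% higher and 23.2% lower over all genes. This list was chosen with earlier results of these data known, so the comparison with those shares is not an independent one. EMP1, a membrane protein, rose by 3.98 ± 0.11 (log2, SE), the ETS factor gene ETV5 by 3.75 ± 0.21, the ephrin receptor gene EPHA2 by 2.93 ± 0.16 and PLAUR, the urokinase receptor, by 2.53 ± 0.10. The highest limma Benjamini-Hochberg adjusted p of these 4 was 5.65e-06. Other rises, picked out with their values known, were those of the MAPK phosphatase genes DUSP6 (2.01) and DUSP1 (1.26), of FOSL1 (1.72), IER3 (0.79) and EGR1 (0.29). The 3 falls were FOS (-0.32), DUSP2 (-0.19) and PHLDA1 (-0.61), and 1 gene was called lower without H69 replicate 1, H69 replicate 2 or H69M replicate 2.

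**Figure D3:**
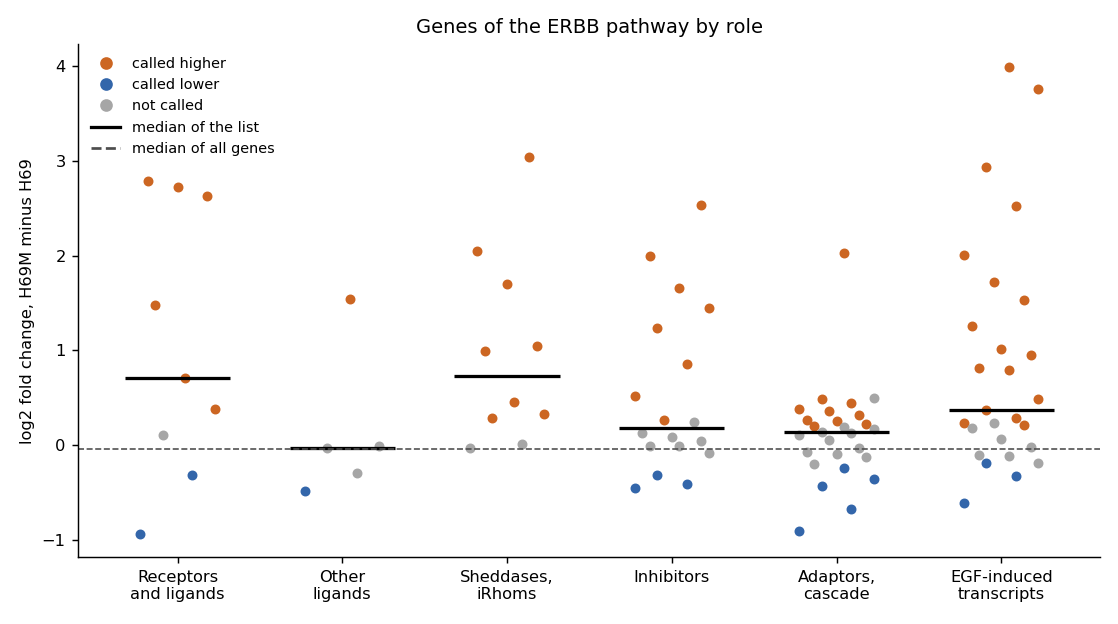
Log2 fold change of H69M minus H69 for each measured gene of the ERBB pathway, 1 point per gene, grouped by role; orange was called higher, blue lower and grey not called, black bars are list medians and the dashed line is the median of all genes (-0.04). The list medians of the members (0.71) and of the shedding genes (0.73) lie above those of the other groups, and the adaptors and cascade gather near 0 with SHC1 above the rest.

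The genes beside EGFR, HBEGF and NRG1 on their chromosomes had smaller rises than these members or none. For each member the 3 nearest measured protein-coding genes on each side were taken in the order of the reference gene table, a comparison added after the members' values were seen. Around EGFR, 1 of the 6 neighbours was called higher and 2 lower, and they ranged from -1.83 to 0.29 in log2 fold change, with VSTM2A and COBL lower and VOPP1 higher by 0.29. Around HBEGF they ranged from -0.67 to 0.21 with 0 called higher, and around NRG1 from -0.62 to 0.86 with 2 called higher. Over all genes 21.0% were called higher and 23.2% lower, and counts among 6 neighbours are too small to set against those shares. ERBB2 lay between PGAP3 (0.16) and MIEN1 (0.02), neither of them called, and the adaptor gene GRB7 next to them was at -0.05; IKZF3 beyond it rose by 1.13.

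EPGN, EREG and BTC are close neighbours on chromosome 4, and their fold changes were -0.01, 0.71 and -0.31. PARM1, on the other side of BTC, fell by 3.34 on the log2 scale. Neither EREG's rise nor BTC's fall was shared by all genes of this stretch.

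**Figure D4:**
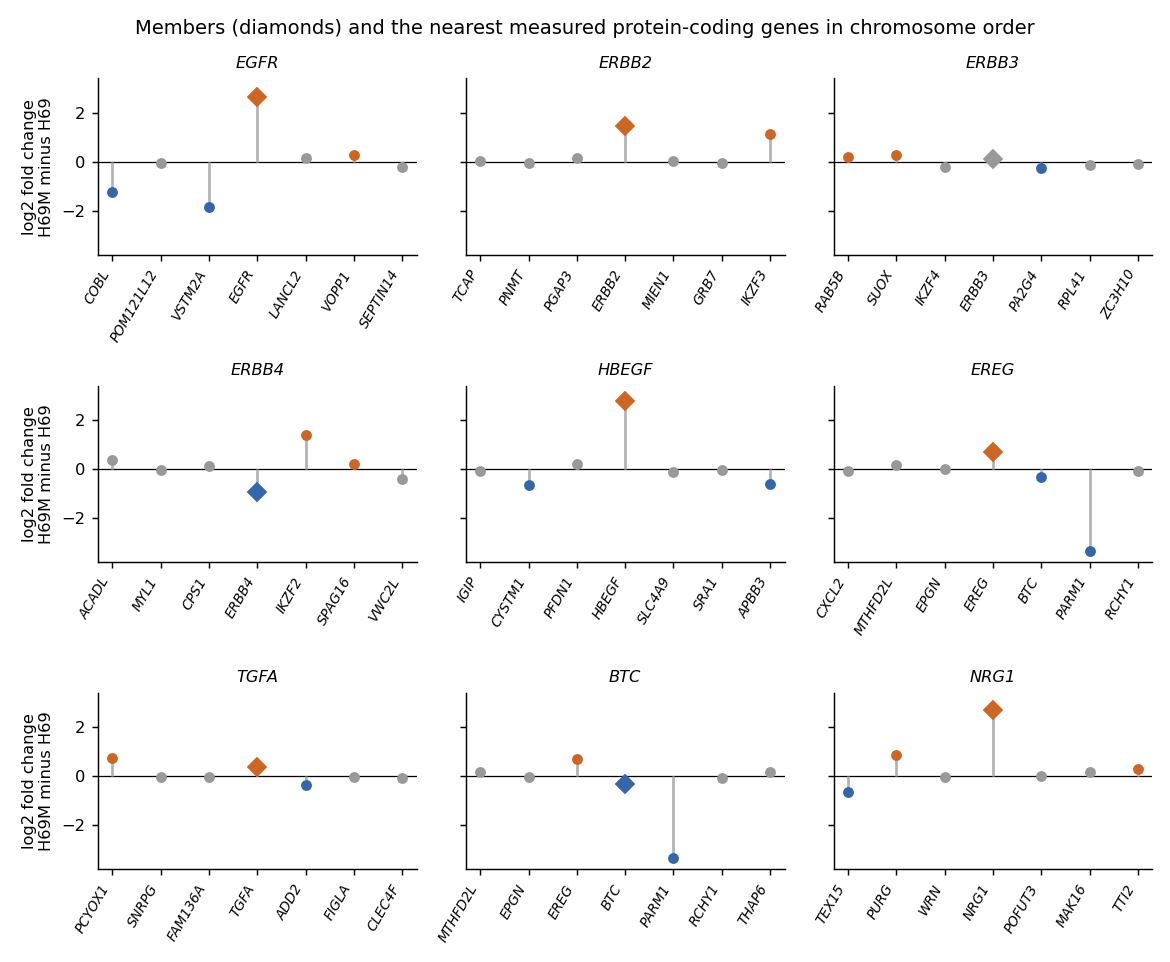
Log2 fold change of H69M minus H69 for each member (diamond, in the centre) and its 3 nearest measured protein-coding genes on each side (circles) in chromosome order, with equal spacing that is not to scale; orange was called higher, blue lower and grey not called. The diamonds of EGFR, HBEGF and NRG1 stand above all of their neighbours.

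Genes with patterns like those of the members that changed by at least 2-fold were ranked by Euclidean distance between mean-centred log2 values over the 6 arrays, a measure led by the difference between the lines. The 3 nearest to EGFR were ALPK2 (distance 0.10), PPARG (0.13) and ITGA3 (0.20). For ERBB2 they were GUCY1B1 (0.18), PCDHB10 (0.19) and EGF (0.19). HBEGF had QSOX1 (0.23), ZEB2 (0.27) and GSDME (0.32), and NRG1 had TMTC1 (0.17), PLA2G4A (0.23) and CPQ (0.27).

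Markers of cell types were read on the same arrays. Over all genes 21.0% were called higher and 23.2% lower. Lists this short are weak grounds for telling the leukocyte and endothelial counts from those shares. Of 10 measured neuroendocrine markers 0 rose and 7 fell, led by NCAM1 (-1.35) and CHGB (-1.14), and the mean of the list over its genes lay between 9.75 and 9.80 on the H69 arrays and between 8.96 and 9.29 on the H69M arrays. Of 12 fibroblast and mesenchymal markers 10 rose and 0 fell, led by LUM (6.78, from 3.33 to 3.74 in H69 to 9.92 to 10.73 in H69M) and VIM (6.74), with list means of 5.36 to 5.39 in H69 and 8.28 to 8.62 in H69M. These moved with the rises of EGFR, HBEGF and NRG1, and with the falls of ERBB4 and BTC, and their part in those changes was not tested. Of 11 leukocyte markers 1 rose (CD68, 0.57) and 4 fell, among them PTPRC, the pan-leukocyte marker (-0.35, and 3.51 to 4.004 on the 6 arrays), with list means of 5.13 to 5.20 and 5.05 to 5.08. Of 10 endothelial markers 4 rose, led by TEK (3.28) and ESAM (0.55), and 1 fell, with list means of 4.97 to 5.05 and 5.26 to 5.57. The H69M arrays of TEK lay far apart (8.44, 8.58 and 6.64), which bears on the H69M means of this list. Picked out with their values known were CLDN5, the gene that fell (-0.53), and PECAM1, which was not called (-0.14). Of 9 epithelial markers 2 rose, led by KRT18 (2.003), and 5 fell, led by ELF3 (-1.55), with list means of 8.999 to 9.15 and 8.80 to 9.02.

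**Figure D5:**
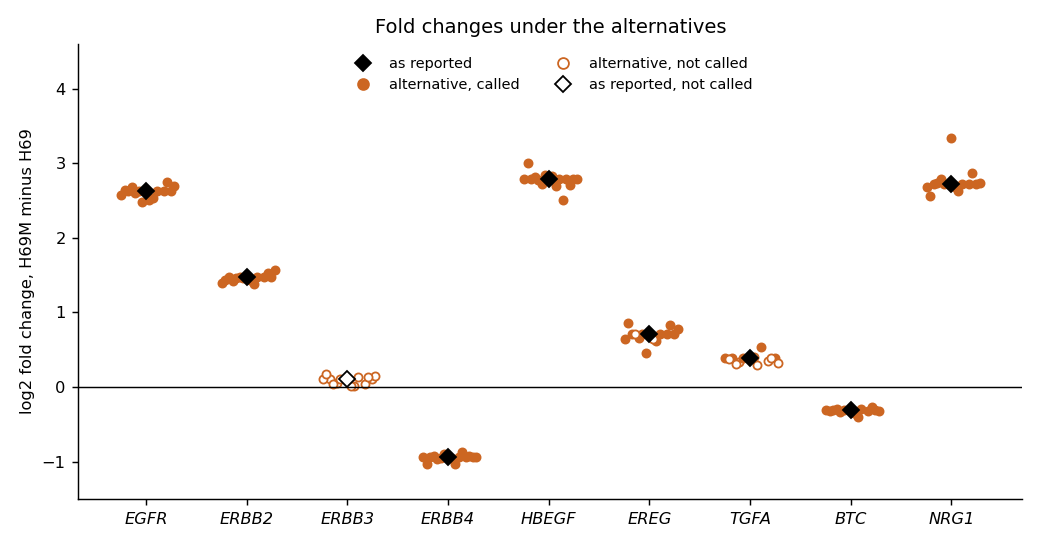
Log2 fold change of H69M minus H69 for each member as reported (black diamond) and under each alternative that kept the gene (orange circles); filled symbols were called and open ones were not. Open circles appear for TGFA and EREG beside ERBB3, and no member changes sign.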

How the data were processed

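Total RNA of H69 and H69M was measured on 3 arrays each. The authors deposited 1 log2 value per probe set and array. Per the submitters' processing notes, RMA and limma were used; their versions and options, and a genome build, are not given here. RMA gives no detection call and compresses folds against dim genes.

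Genes were named from the 19158 of 32321 probe sets with 1 symbol in the platform annotation, and the probe set with the highest mean stood for a gene. H69M was compared with H69 in R 4.3.3 with a two-sided limma 3.58.1 fit (lmFit, then eBayes; group only). P-values were adjusted over 18404 genes by Benjamini-Hochberg, threshold 0.05. No set test was run. The code was tested on simulated data. Figures used matplotlib 3.10.9.

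Named were all members, the other ligands and shedding genes, the 4 largest called changes of each other pathway list, the 2 largest of each marker list, and the 3 nearest patterns. Of the 98 pathway genes listed, 87 had a probe set, and 11 are not analysed here. The members and lists were chosen with earlier results of these data known. Promoter windows and gene order came from RefSeq, GRCh38.p14. Alternatives were the replicate block, other scalings, filters, variance models, probe set choices and leaving out each array. Precision is limited by the number of arrays: over all genes, the fold changes had a median SE of 0.075 (log2).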

Additional observations from a re-analysis of the deposited data

Results flagged for a closer look

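NRG1 has another probe set, 8145766, that the comparison did not use because its mean over the 6 arrays was the lower one. It carried a signal of its own: 5.23, 4.78 and 5.26 in H69 and 8.94, 9.20 and 9.02 in H69M (log2). In a limma fit over all 19158 probe sets with 1 symbol, its log2 fold change was 3.97 ± 0.14 (SE), or 15.6-fold higher in H69M (Benjamini-Hochberg adjusted p = 6.54e-07), against 2.72 for the probe set used. The H69 mean of 8145766 (5.09) lay below the 25th percentile of gene level (5.58), so its fold starts from a dim signal. Both probe sets put NRG1 higher in H69M on 3 of 3 arrays. Whether they read different NRG1 transcripts was not tested.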

How the results depend on the processing

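The fold changes of all 9 members kept their sign under every alternative that kept the gene. ERBB3 was called under none of them (log2 fold change 0.01 to 0.18), so its sign is not established. Of 134 values, 124 stayed on the same side of the threshold. The other 10 were lost calls: 8 for TGFA (with arrays centred, quantile normalization, array weights, and without H69 replicate 2 or 3 or H69M replicate 1, 2 or 3) and 2 for EREG. Leaving out 1 array at a time gave 4 to 6 members higher and 2 lower, 3318 to 3628 genes higher and 3521 to 4450 lower over all genes, and 41 to 45 pathway genes higher and 9 to 13 lower. With genes below the 25th percentile left out, 6 members remained in the fit and 1 was called lower; with genes below the median left out, 2 remained, 1 called higher (HBEGF) and 1 lower (ERBB4), since the filters removed the other members. With arrays centred on their medians, 6827 genes and 19 pathway genes were called lower, in place of 4274 and 12. With the replicate number as a block, 6 members were called higher and 2 lower, and 3617 and 4021 genes over all. Deviations of same-numbered arrays correlated with r of 0.0072 to 0.021, so the numbers were not taken to pair the arrays. The dim levels of TGFA, BTC and ERBB3, and of EGF and NRG4 among the other ligands, limit what their fold changes can show. In H69 alone, the means of EGFR (5.51) and EREG (5.30) were also below the 25th percentile of gene level (5.58).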

Other observations

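Genes of the Ikaros zinc finger family, transcription factors best known in lymphocytes, are near neighbours of ERBB receptor genes, and they were read here after their values were seen. IKZF2, next to ERBB4, went from 3.76 to 5.17 (log2) and had a log2 fold change of 1.40 ± 0.13 (SE; limma, Benjamini-Hochberg adjusted p = 8.3e-05), whereas ERBB4 itself had -0.94. IKZF3, 3 measured genes from ERBB2, rose by 1.13 ± 0.09 (limma, Benjamini-Hochberg adjusted p = 4.21e-05), while GRB7 and MIEN1 between them were not called. IKZF4, next to ERBB3, had -0.22 and was not called (limma, Benjamini-Hochberg adjusted p = 0.0766). The means of IKZF2 in both lines, and of IKZF3 in H69 (5.04), lay below the 25th percentile of gene level (5.58). The rises of IKZF2 and IKZF3 therefore start from dim signals.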
